A study of Homo sapiens with 12 samples.

Results

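Genes for protein folding, quality control and stress sensing in the endoplasmic reticulum (ER) were followed in LNCaP cells, an androgen-responsive human prostate cancer line, over 2 shRNA lines with and without dihydrotestosterone (DHT). The set holds 35 genes of the 34643 in the table, listed by name for what they do: 12 chaperones and cochaperones, 6 disulfide and prolyl isomerases, 11 genes of ER-associated degradation (ERAD), and 6 sensors and transcription factors. The set was chosen with earlier results of these data known, so its counts beside those of all genes are a description only. All 35 genes passed the filter on low counts, which left 15419 genes for testing. RNA-seq (75 bp paired-end reads) covered 4 groups of 3 libraries. Cells of every group carried a lentiviral pLKO.1-puro vector, with a U6 promoter driving a scramble control shRNA (sh_scramble) or an shRNA against TMEFF2 (sh_TMEFF2), were selected in puromycin, and were used about 2.5 weeks after transduction (17 days in the series' design, while the study's methods give a shorter time). After 24 h in medium with 10% charcoal-stripped serum they received 10 nM DHT (+DHT) or 0.0001% ethanol (−DHT) for 24 h. The 3 repeats were independent treatments and extractions from 2 transductions, and which repeat came from which transduction is not given in the sources used here. P-values therefore measure the spread between these repeats of 1 cell line. In bulk RNA a change in the cells present and a change in RNA per cell cannot be told apart.

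Secretory proteins fold in the ER lumen with the help of chaperones such as BiP (HSPA5) and of isomerases that form and shuffle disulfide bonds. Chains that fail to fold are drawn back to the cytosol through the SYVN1-SEL1L complex, ubiquitinated and degraded. Unfolded protein is read by the membrane sensors IRE1 (ERN1), PERK (EIF2AK3) and ATF6. IRE1 splices XBP1 mRNA to make an active transcription factor, ATF6 is cut free in the Golgi, and PERK slows translation. XBP1 and ATF6 in turn raise chaperone and ERAD genes. Prostate luminal cells are secretory, and their secretory output responds to androgen.

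Libraries held 19450866 to 22612046 estimated counts (median 21194622), and all levels below are TMM-normalized CPM (counts scaled to a common library size), which are not corrected for gene length. TMEFF2, a transmembrane protein and the target of the shRNA, was at 77.8, 73.8 and 103 CPM in sh_scramble −DHT and 173, 117 and 169 in sh_scramble +DHT. In the libraries labelled sh_TMEFF2 it was at 68.6, 39.3 and 81.7 CPM without DHT and 142, 90.03 and 114 with DHT. The lines overlapped at both DHT levels. The difference was −0.43 on the log2 scale without DHT (SE 0.25, adjusted p = 0.50) and −0.41 with DHT (SE 0.25, adjusted p = 0.30), so lower TMEFF2 RNA in the libraries labelled sh_TMEFF2 did not pass the test. With 1 library left out the differences ranged from −0.18 (without sh_TMEFF2 −DHT replicate 2) to −0.65 (without sh_TMEFF2 −DHT replicate 3), and from −0.24 (without sh_TMEFF2 +DHT replicate 2) to −0.58 (without sh_TMEFF2 +DHT replicate 1). Without DHT the value was also −0.26 without sh_scramble −DHT replicate 3. The study reports silencing of TMEFF2 in LNCaP cells. Of the several shRNAs it made, only some appreciably lowered the protein by Western blot, and it shows mRNA levels as well. Which shRNA these libraries carry is not given in the sources used here. All adjusted p-values come from the quasi-likelihood test of edgeR, adjusted by Benjamini and Hochberg's method for the 15419 genes.

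The androgen-induced gene FKBP5, a cochaperone of steroid receptors, was at 55.00, 64.2 and 71.04 CPM in sh_scramble −DHT and 585, 744 and 653 in sh_scramble +DHT. In sh_TMEFF2 FKBP5 was at 57.3, 58.5 and 66.1 CPM without DHT and 86.02, 114 and 136 with DHT. FKBP5 thus rose with DHT in both lines (10.4-fold in sh_scramble and 1.85-fold in sh_TMEFF2), and the rise was smaller in sh_TMEFF2 (interaction log2 −2.50, SE 0.21, adjusted p = 8.4e-05). NDRG1 rose 3.25-fold in sh_scramble (adjusted p = 0.00010), with a log2 change of 0.22 in sh_TMEFF2 (adjusted p = 0.56) and an interaction of −1.48 (adjusted p = 0.016). KLK3, which encodes prostate-specific antigen, rose in both lines (log2 1.96 and 2.45) and its interaction of 0.49 did not pass (adjusted p = 0.46). That value was 0.84 without sh_TMEFF2 −DHT replicate 3, where it passed (adjusted p = 0.047), 0.30 without sh_TMEFF2 −DHT replicate 2 and 0.29 without sh_TMEFF2 +DHT replicate 3. The level of KLK3 differed between the lines, at 1919.5, 1952 and 1899 CPM in sh_scramble −DHT and 7525, 7215 and 7732 with DHT, against 305, 255 and 508 and 1452, 1920.1 and 2472 in sh_TMEFF2. KLK3 was thus 5.40-fold lower in sh_TMEFF2 without DHT and 3.85-fold lower with DHT (adjusted p = 0.00028 and 8.3e-05). TMPRSS2 had a log2 change of 2.97 in sh_scramble (adjusted p = 0.00074) and 0.70 in sh_TMEFF2 (adjusted p = 0.37). The latter value rested on 1 library and was −0.10 without sh_TMEFF2 +DHT replicate 3, and it passed with the second deposited column of each library alone (1.31, adjusted p = 0.027). The interaction of TMPRSS2 (log2 −2.27) did not pass. It passed under 3 of 20 alternatives (adjusted p over all fits 0.0074 to 0.26).

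Luminal markers KRT8, KRT18, KLK3 and HOXB13 were present in every library, with summed levels of 3166 to 3269.8 CPM in sh_scramble −DHT, 9383 to 10013 in sh_scramble +DHT, 1517 to 1817 in sh_TMEFF2 −DHT and 2564 to 3611 in sh_TMEFF2 +DHT. Without DHT the lower sum in sh_TMEFF2 came from KLK3, with means of 1923 CPM in sh_scramble and 356 in sh_TMEFF2. The same means were 448 and 492 for KRT8, 354 and 341 for KRT18, and 484 and 458 for HOXB13. Of these 4 markers, KRT8, KRT18 and KLK3 rose with DHT in sh_scramble while HOXB13 fell. KRT8 and KRT18, keratins of the luminal cell skeleton, had interactions of −1.49 and −1.07 on the log2 scale (adjusted p = 8.4e-05 and 8.6e-05). Of the 5 luminal markers tested, 1 of which is not reported here, 2 passed the interaction below 0 and 1 above. The 7 markers of basal, mesenchymal, blood and endothelial cells summed to 19.99 to 27.2 CPM in the sh_scramble libraries and 25.5 to 48.9 in the sh_TMEFF2 libraries, and COL1A1 held the largest counts. KRT5 was at 0 in all 12 libraries, and KRT14 and TP63 stayed at or under 1.44 and 0.426 CPM. With DHT in sh_scramble COL1A1 and PTPRC fell and KRT14 rose, out of 5 of these markers tested. Between the lines with DHT, 1 of the 5 passed as higher in sh_TMEFF2 (0 by limma-voom) and 1, KRT14, as lower. VIM was at 2.12, 3.06 and 5.26 CPM in sh_scramble +DHT and 8.80, 5.89 and 4.30 in sh_TMEFF2 +DHT, with overlap. KRT14 passed the filter through the sh_scramble +DHT libraries, where it was at 1.44, 0.718 and 0.964 CPM. It was at 0, 0.0411 and 0.0401 CPM in sh_scramble −DHT and 0, 0.404 and 0.109 in sh_TMEFF2 +DHT. The calls of KRT14 thus rest on the group that let it pass the filter, and nothing is drawn from them. The part of these markers in the results below was not tested.

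Promoter sequence is shown first for members that hold the ER stress response element, a known binding site of ATF6 and XBP1 with NF-Y. Its part in the changes described below was not tested. This element was searched on both strands as CCAAT and CCACG separated by 9 bases, in windows from 250 bases before to 50 after each RefSeq start (GRCh38.p14). Of the 35 genes, 32 had a window, and 7 of these (21.9%) held the element, against 25 of all 27305 genes with a window (0.0916%). Sequences of 6 members are printed 5′ to 3′ on the gene's strand, 250 bases up to the start, with the 2 parts of each element in capitals. They are HSPA5 (chr9:125241344-125241593, minus strand), HSP90B1 (chr12:103930160-103930409, plus), PDIA6 (chr2:10812786-10813035, minus), CALR (chr19:12938359-12938608, plus), CANX (chr5:179698679-179698928, plus) and XBP1 (chr22:28800570-28800819, minus). HSP90B1 has 2 elements in opposite orientations, and in CALR the element is on the opposite strand, so that it reads CGTGG and then ATTGG.
HSPA5: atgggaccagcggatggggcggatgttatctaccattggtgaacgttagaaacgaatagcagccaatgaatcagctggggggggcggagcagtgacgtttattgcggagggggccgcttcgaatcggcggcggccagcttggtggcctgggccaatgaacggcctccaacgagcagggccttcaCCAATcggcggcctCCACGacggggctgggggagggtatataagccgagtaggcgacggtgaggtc
HSP90B1: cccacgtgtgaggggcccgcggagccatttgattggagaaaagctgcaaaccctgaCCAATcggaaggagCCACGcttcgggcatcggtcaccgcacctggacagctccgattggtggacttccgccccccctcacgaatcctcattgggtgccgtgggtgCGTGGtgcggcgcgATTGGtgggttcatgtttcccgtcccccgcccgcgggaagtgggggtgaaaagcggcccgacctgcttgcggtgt
PDIA6: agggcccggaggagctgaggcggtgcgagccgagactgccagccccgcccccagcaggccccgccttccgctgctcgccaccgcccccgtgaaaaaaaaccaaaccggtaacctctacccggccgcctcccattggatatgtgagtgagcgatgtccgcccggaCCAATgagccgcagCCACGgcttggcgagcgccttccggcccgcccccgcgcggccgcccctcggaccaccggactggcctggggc
CALR: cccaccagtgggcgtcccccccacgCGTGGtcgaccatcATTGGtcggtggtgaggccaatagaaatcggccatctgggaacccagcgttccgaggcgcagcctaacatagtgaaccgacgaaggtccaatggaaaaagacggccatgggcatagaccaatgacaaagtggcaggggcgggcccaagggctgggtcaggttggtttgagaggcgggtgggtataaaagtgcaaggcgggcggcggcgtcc
CANX: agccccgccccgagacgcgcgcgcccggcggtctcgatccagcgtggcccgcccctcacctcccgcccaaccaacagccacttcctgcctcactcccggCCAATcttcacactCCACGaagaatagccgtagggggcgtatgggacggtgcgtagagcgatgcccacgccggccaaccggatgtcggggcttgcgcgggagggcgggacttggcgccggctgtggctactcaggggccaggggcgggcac
XBP1: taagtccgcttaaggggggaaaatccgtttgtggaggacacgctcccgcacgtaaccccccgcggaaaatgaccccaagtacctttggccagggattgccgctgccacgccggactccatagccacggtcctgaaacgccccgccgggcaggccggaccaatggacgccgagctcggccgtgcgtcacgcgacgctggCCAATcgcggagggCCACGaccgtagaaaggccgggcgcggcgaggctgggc

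In HSPA5 the element began 66 bases before the start, in XBP1 52, in PDIA6 86, in CANX 151, in CALR 225, and in HSP90B1 194 and 89. The seventh member, CRELD2, held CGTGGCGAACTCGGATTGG 80 bases before its start, in a stretch shared with the start of ALG12. The related ERSE-II (ATTGG and CCACG separated by 1 base) was found in SDF2L1, HERPUD1 and HYOU1, which is 9.38% of members against 0.0696% of all genes. HYOU1 held 2 copies of CGTGGTCCAAT, the first overlapping a match to the XBP1 site TGACGTGG, and HERPUD1 held ATTGGGCCACG. TGACGTGG was also found in DNAJC10 and UBE2J1 (9.38% of members against 0.927% of all genes). TGATGCAA, a composite site bound by ATF4, was found in HERPUD1 alone among members (1.08% of all genes), and the androgen response element (AGAACA and TGTTCT separated by 3 bases) in none of the members and 1 other gene. A match is a description of the letters, not of binding.

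**Figure D1:**
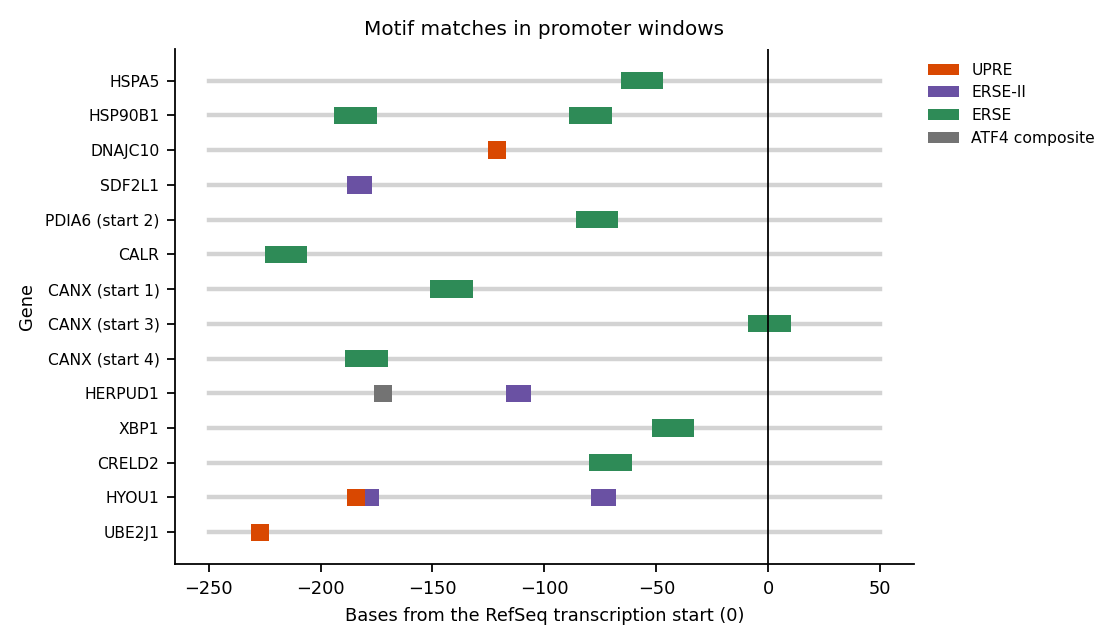
Places of motif matches (coloured blocks) in the promoter windows of members that hold any, by bases from the RefSeq start; grey lines are the windows from 250 bases before to 50 after. The ERSE blocks of HSPA5, XBP1, PDIA6 and CRELD2 lie within 86 bases before the start, and several starts are drawn for genes with more than 1 window.

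With DHT in sh_scramble, 32 of the 35 genes rose and none fell at an adjusted p of at most 0.05, beside 14.4% of all genes tested that rose and 12.6% that fell. In 22 the rise was also at least 1.5-fold, a size that 5.45% of all genes reached. The median log2 fold change of the set was 0.74, beside −0.01 for all genes. All 12 chaperones rose (median 0.92), as did all 6 isomerases (0.84), 10 of 11 ERAD genes (0.50) and 4 of 6 sensors and factors (0.61). OS9, ATF6 and EIF2AK3 did not pass. No member was lower at an unadjusted p under 0.05, nor by DESeq2 or limma-voom, which each called 32 higher. Scaling by library size alone changed the split of all called genes from 2217 higher and 1940 lower to 1673 and 2698, and left 32 members higher.

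**Figure D2:**
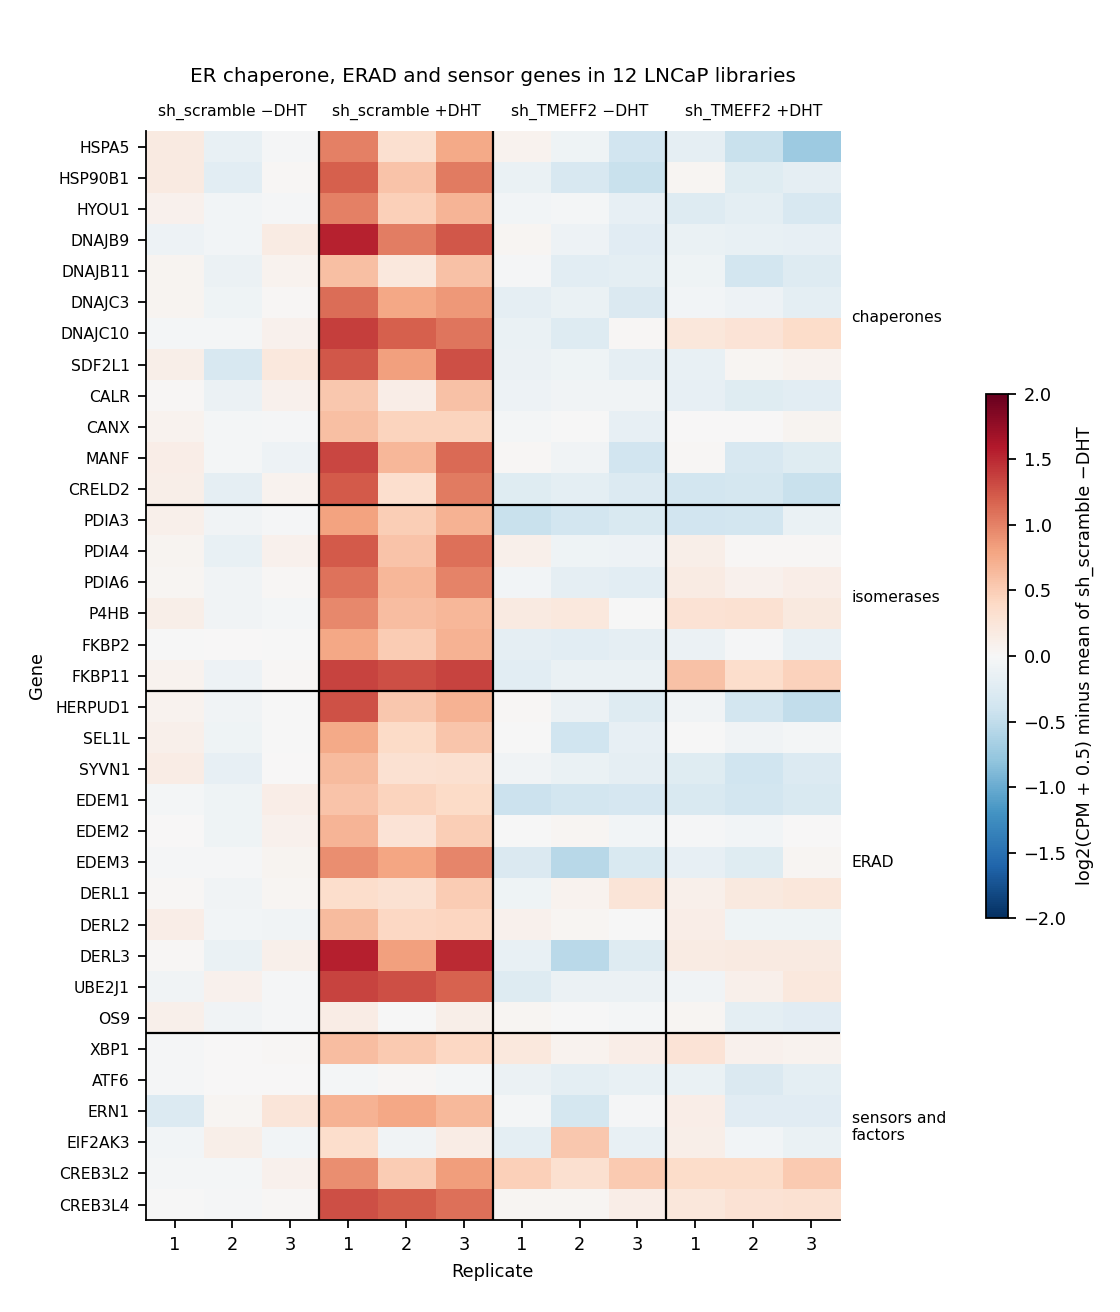
Level of each of the 35 genes (rows, by role) in the 12 libraries (columns, replicate number), as log2(CPM + 0.5) minus the gene's mean in sh_scramble −DHT. The 3 sh_scramble +DHT columns are the red ones, with a median over genes of 0.93, 0.51 and 0.70, while the other 9 columns have medians between −0.16 and 0.05.

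Summed over the 35 genes, the level was 9431, 8257 and 8946 CPM in sh_scramble −DHT, 16586, 12374 and 14876 in sh_scramble +DHT, 8471, 8165 and 7733 in sh_TMEFF2 −DHT, and 8664, 8088 and 8166 in sh_TMEFF2 +DHT. Only the sh_scramble +DHT libraries stood above the others. Among those 3, replicate 2 was the lowest for 27 of the 35 genes. Without it the median log2 change with DHT in sh_scramble was 0.85, without replicate 1 it was 0.61, and the same 32 genes passed with any 1 of the 12 libraries left out.

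HSPA5, or BiP, the HSP70 of the ER lumen, was at 968, 769 and 847 CPM in sh_scramble −DHT and 1729, 1076 and 1451 in sh_scramble +DHT. In sh_TMEFF2 HSPA5 was at 903, 809.8 and 656 CPM without and 755, 631 and 517 with DHT. The sh_scramble +DHT libraries lay above all 9 others, and replicate 2 was nearest to them. HSPA5 rose 1.65-fold in sh_scramble (95% interval of the log2 change 0.34 to 1.10, adjusted p = 0.0088) and had a log2 change of −0.32 in sh_TMEFF2 (adjusted p = 0.27). HSP90B1, or GRP94, the HSP90 of the ER, was at 1725, 1324 and 1556 CPM in sh_scramble −DHT and 3481, 2270.2 and 3140.4 with DHT. In sh_TMEFF2 HSP90B1 was at 1395, 1217 and 1123 and 1572, 1296 and 1353 CPM. Its rise in sh_scramble was 1.93-fold (adjusted p = 0.00039). HYOU1, the large HSP70-like protein that exchanges nucleotide on BiP, was at 366, 332 and 340.1 CPM without and 692, 482 and 556 with DHT in sh_scramble. In sh_TMEFF2 HYOU1 was at 333, 335 and 308 and 288, 301 and 277 CPM. It rose 1.67-fold in sh_scramble, while in sh_TMEFF2 the +DHT libraries all lay below those without DHT by an amount that did not pass (log2 −0.17, adjusted p = 0.31).

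Cochaperones with a J domain, which hand clients to BiP, included the chaperone gene with the highest fold change. DNAJB9 (ERdj4), which also binds IRE1, was at 17.6, 18.1 and 21.2 CPM in sh_scramble −DHT and 55.7, 39.1 and 45.5 in sh_scramble +DHT. In sh_TMEFF2 DNAJB9 was at 19.5, 17.6 and 16.1 CPM without and 17.3, 17.02 and 16.7 with DHT. It rose 2.46-fold in sh_scramble (adjusted p = 1.1e-05), and the 6 sh_TMEFF2 libraries lay close together (log2 change −0.06, 95% interval −0.34 to 0.22). DNAJC10 (ERdj5), a disulfide reductase that prepares clients for degradation, was at 129, 129 and 141 CPM and then 347, 305 and 279 with DHT in sh_scramble. In sh_TMEFF2 DNAJC10 was at 121, 111 and 135 and 155, 160.3 and 171 CPM, with no overlap. It rose in both lines, 2.34-fold in sh_scramble (adjusted p = 1.1e-06) and 1.33-fold in sh_TMEFF2 (adjusted p = 0.010). DNAJC3 (p58IPK), also known to restrain PERK, was at 89.6, 81.2 and 87.9 CPM without and 188, 148 and 157 with DHT in sh_scramble. In sh_TMEFF2 DNAJC3 was at 76.02, 78.5 and 70.2 and 83.3, 79.9 and 75.6 CPM, so that it rose 1.90-fold in sh_scramble and had a log2 change of 0.09 in sh_TMEFF2 (adjusted p = 0.58). SDF2L1, a partner of the J proteins, was at 14.6, 10.6 and 15.5 CPM in sh_scramble −DHT and 32.5, 24.02 and 33.6 with DHT. In sh_TMEFF2 SDF2L1 was at 12.3, 12.6 and 11.8 and 12.1, 13.8 and 14.2 CPM. The rise in sh_scramble was 2.21-fold (adjusted p = 0.00015). DNAJB11 (ERdj3) ranged from 61.6 to 122 CPM over the 12 libraries and rose 1.40-fold in sh_scramble.

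The lectin chaperones CALR and CANX hold glycoproteins while they fold. CALR was at 1248, 1130.1 and 1292 CPM in sh_scramble −DHT and 1778, 1337 and 1829 in sh_scramble +DHT. In sh_TMEFF2 CALR was at 1140.4, 1169 and 1163 and 1090.2, 1033 and 1061 CPM. Replicate 2 of sh_scramble +DHT lay just above the −DHT libraries, and the rise was 1.35-fold (adjusted p = 0.0049). CANX was at 909, 847 and 852 CPM without and 1323, 1183 and 1183 with DHT in sh_scramble. In sh_TMEFF2 CANX was at 847, 866 and 776 and 872, 876 and 901 CPM. It rose 1.41-fold in sh_scramble with a narrow error (log2 0.50, SE 0.06). MANF, a secreted factor of the ER that binds BiP, was at 26.97, 23.9 and 22.7 CPM in sh_scramble −DHT and 62.4, 38.8 and 54.3 with DHT. In sh_TMEFF2 MANF was at 24.9, 23.4 and 18.7 and 24.99, 19.6 and 20.6 CPM, so the groups of that line overlapped. CRELD2, an ER protein with EGF repeats, was at 51.2, 41.7 and 50.02 CPM without and 111, 59.7 and 97.9 with DHT in sh_scramble. In sh_TMEFF2 CRELD2 was at 39.9, 41.4 and 39.04 and 36.8, 37.3 and 34.7 CPM. In sh_scramble MANF rose 2.11-fold and CRELD2 1.88-fold (adjusted p = 0.00038 and 0.0017).

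**Figure D3:**
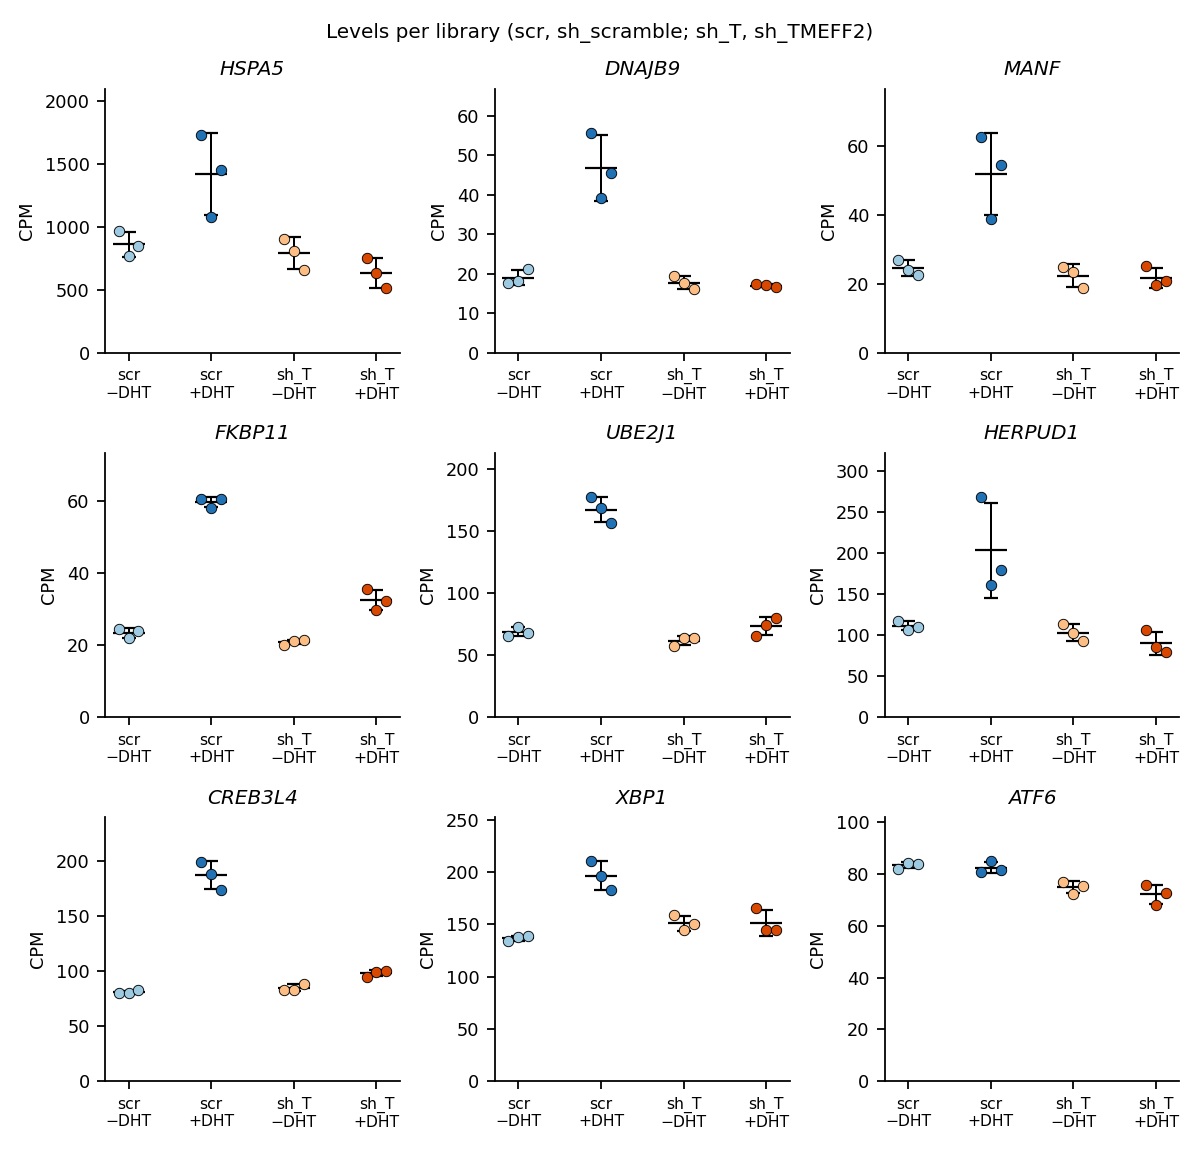
CPM of 9 genes in each library (points), with the group mean and SD (bars, n = 3); the axes start at 0. DNAJB9, UBE2J1 and CREB3L4 are highest in the sh_scramble +DHT libraries, FKBP11 and CREB3L4 are also higher with DHT in sh_TMEFF2, and ATF6 stays between 68.2 and 85.1 CPM.

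Isomerases rose together in sh_scramble. FKBP11, a membrane-anchored peptidyl-prolyl isomerase of secretory cells, was at 24.6, 21.8 and 23.7 CPM in sh_scramble −DHT and 60.4, 58.03 and 60.6 in sh_scramble +DHT. In sh_TMEFF2 FKBP11 was at 20.1, 21.1 and 21.3 CPM without and 35.5, 29.8 and 32.2 with DHT. Neither line overlapped between DHT levels, and it rose 2.55-fold in sh_scramble (adjusted p = 2.0e-07) and 1.56-fold in sh_TMEFF2 (adjusted p = 0.00067). FKBP2, a small isomerase of the same family, was at 42.3, 42.9 and 42.2 and 73.2, 60.9 and 69.4 CPM in sh_scramble without and with DHT. In sh_TMEFF2 FKBP2 was at 37.5, 36.7 and 37.6 and 39.3, 41.7 and 38.3 CPM. Its rise in sh_scramble was 1.60-fold, and its 0.09 on the log2 scale in sh_TMEFF2 did not pass (adjusted p = 0.46).

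Among protein disulfide isomerases, PDIA4 (ERp72) was at 263, 229 and 270.2 CPM in sh_scramble −DHT and 593, 377 and 545 with DHT. In sh_TMEFF2 PDIA4 was at 271, 238 and 237 and 275, 259 and 257 CPM. PDIA4 rose 1.99-fold in sh_scramble (adjusted p = 0.00014) and its groups in sh_TMEFF2 overlapped. PDIA6, which also acts on the sensors, was at 294, 275 and 293 and 613, 456 and 573 CPM in sh_scramble. In sh_TMEFF2 PDIA6 was at 277, 254 and 249 and 321, 305 and 314 CPM, without overlap, but the log2 change of 0.27 did not pass (adjusted p = 0.068). Its rise in sh_scramble was 1.91-fold. P4HB, the founding member of the family and a subunit of collagen prolyl hydroxylase, was at 831, 732 and 743 and 1489, 1174 and 1217 CPM in sh_scramble. In sh_TMEFF2 P4HB was at 868, 891 and 761 and 932, 944 and 877 CPM. PDIA3 (ERp57), which works with the lectin chaperones, was at 941, 834 and 867 and 1541, 1239.6 and 1424 CPM in sh_scramble. In sh_TMEFF2 PDIA3 was at 649, 685 and 713 and 675, 679.7 and 803 CPM. P4HB and PDIA3 rose 1.68-fold and 1.59-fold in sh_scramble, and the 3 PDIA3 libraries of sh_TMEFF2 −DHT lay below those of sh_scramble −DHT by a difference that did not pass (log2 −0.37, adjusted p = 0.072).

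Of the ERAD genes, UBE2J1, the ubiquitin-conjugating enzyme of the ER membrane, was at 65.6, 72.8 and 67.8 CPM in sh_scramble −DHT and 177, 168 and 156 in sh_scramble +DHT. In sh_TMEFF2 UBE2J1 was at 57.3, 63.3 and 63.5 CPM without and 65.2, 74.1 and 80.00 with DHT. It rose 2.43-fold in sh_scramble (adjusted p = 4.0e-07), beside a log2 change of 0.25 in sh_TMEFF2 (adjusted p = 0.065). HERPUD1, a scaffold of the dislocation complex, was at 117, 106 and 110.1 CPM and 268, 161 and 179 with DHT in sh_scramble, where replicate 1 stood out. In sh_TMEFF2 HERPUD1 was at 113, 103 and 92.5 and 106, 85.6 and 78.6 CPM. The rise in sh_scramble was 1.83-fold (adjusted p = 0.0018). SYVN1 (HRD1), the ubiquitin ligase, was at 83.8, 66.9 and 75.7 and 117, 92.7 and 94.5 CPM in sh_scramble. In sh_TMEFF2 SYVN1 was at 71.7, 68.9 and 66.6 and 63.4, 56.8 and 62.3 CPM. It rose 1.34-fold in sh_scramble, and its exons overlap FAU on the same strand, so the split of their reads is uncertain. SEL1L, its adaptor, rose 1.49-fold in sh_scramble (adjusted p = 0.0012) within a range of 150.5 to 334 CPM over all libraries.

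EDEM1, EDEM2 and EDEM3 trim mannose from glycoproteins bound for degradation. EDEM1 was at 71.4, 69.1 and 81.2 and 110.2, 101 and 96.6 CPM in sh_scramble without and with DHT. In sh_TMEFF2 EDEM1 was at 54.7, 57.1 and 58.5 and 59.5, 57.3 and 59.5 CPM, and all 6 of these libraries lay below every sh_scramble library. EDEM3 was at 85.9, 85.9 and 90.5 and 167, 151 and 173 CPM in sh_scramble. In sh_TMEFF2 EDEM3 was at 71.2, 59.4 and 70.6 and 78.2, 74.1 and 89.8 CPM. EDEM1 rose 1.39-fold, EDEM2 1.42-fold and EDEM3 1.87-fold with DHT in sh_scramble. The derlins form the channel for dislocation. DERL2 was at 51.9, 45.7 and 45.3 and 74.3, 63.6 and 63.9 CPM in sh_scramble. In sh_TMEFF2 DERL2 was at 50.5, 48.7 and 47.3 and 52.4, 44.9 and 44.9 CPM. Its rise in sh_scramble was 1.41-fold. DERL3, the least counted member, ranged from 3.56 to 16.9 CPM and rose 2.65-fold in sh_scramble (adjusted p = 0.00015), the largest fold change of the set. DERL1 rose 1.31-fold (adjusted p = 0.0055), a call that was lost with 1 of the 2 deposited columns of each library (adjusted p = 0.16). OS9, a lectin that recognises ERAD clients, was at 201, 178 and 183 and 208, 185 and 204 CPM in sh_scramble, and its log2 change of 0.09 did not pass (adjusted p = 0.45).

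Among the sensors, ATF6 was at 82.2, 84.2 and 83.9 CPM in sh_scramble −DHT and 80.9, 85.1 and 81.6 in sh_scramble +DHT. In sh_TMEFF2 ATF6 was at 76.9, 72.5 and 75.5 and 75.7, 68.2 and 72.7 CPM. ATF6 had a log2 change of −0.02 in sh_scramble with a 95% interval of −0.14 to 0.11. EIF2AK3 (PERK) was at 43.9, 49.8 and 43.9 and 58.9, 43.5 and 51.1 CPM in sh_scramble. In sh_TMEFF2 EIF2AK3 was at 39.9, 66.5 and 41.1 and 49.6, 44.2 and 41.7 CPM, with replicate 2 without DHT the highest of all 12. Its log2 change in sh_scramble was 0.16 with a wide interval of −0.22 to 0.53. ERN1 (IRE1) was at 35.8, 44.1 and 50.9 and 70.3, 74.03 and 67.9 CPM in sh_scramble. In sh_TMEFF2 ERN1 was at 41.9, 33.9 and 42.4 and 47.4, 36.8 and 36.7 CPM. ERN1 rose 1.62-fold with DHT in sh_scramble (adjusted p = 0.0020) and did not pass in sh_TMEFF2 (log2 0.03, adjusted p = 0.91).

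The transcription factors XBP1, CREB3L4 and CREB3L2 all rose with DHT in sh_scramble. XBP1 was at 134, 138 and 139 CPM in sh_scramble −DHT and 211, 196 and 183 in sh_scramble +DHT. In sh_TMEFF2 XBP1 was at 159, 144 and 150.0 and 165, 145 and 144 CPM. It rose 1.44-fold in sh_scramble (adjusted p = 0.00017), beside a log2 change of 0.00 in sh_TMEFF2, and the counts per gene do not separate its spliced from its unspliced form. CREB3L4, a membrane-bound bZIP factor of the ATF6 kind found in prostate, was at 80.5, 79.8 and 82.4 and 199, 188 and 174 CPM in sh_scramble. In sh_TMEFF2 CREB3L4 was at 83.1, 83.2 and 88.7 and 94.97, 99.05 and 100.4 CPM. No group overlapped its DHT partner, and CREB3L4 rose 2.31-fold in sh_scramble (adjusted p = 7.3e-08) and 1.16-fold in sh_TMEFF2 (adjusted p = 0.044). CREB3L2, which acts on secretory cargo genes, was at 32.8, 32.9 and 35.7 and 64.4, 48.04 and 60.6 CPM in sh_scramble. In sh_TMEFF2 CREB3L2 was at 46.9, 42.1 and 48.9 and 43.6, 43.9 and 48.9 CPM. It rose 1.71-fold in sh_scramble, and its level without DHT was higher in sh_TMEFF2 by an amount that did not pass (log2 0.44, adjusted p = 0.071).

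With DHT in sh_TMEFF2, 3 of the 35 genes rose and none fell, beside 7.84% of all genes that rose and 5.21% that fell. The 3 were FKBP11, DNAJC10 and CREB3L4. The median log2 change of the set was 0.05, beside −0.02 for all genes. CREB3L4 lost its call in 7 of 12 fits with 1 library left out, namely each sh_TMEFF2 +DHT library, replicates 1 and 2 of sh_TMEFF2 −DHT and replicates 1 and 2 of sh_scramble −DHT, and its adjusted p over all alternatives was 0.012 to 0.14. At an unadjusted p under 0.05, 7 members were higher and none lower, and DESeq2 called 6 higher, with PDIA6, EDEM3 and UBE2J1 added, while limma-voom called 3, with 0 lower by either. An effect that passes in one line and not in the other is not by itself a difference, and the test of that difference follows below.

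Without DHT, 1 member passed the test between the lines. EDEM1 was lower in sh_TMEFF2 (1.30-fold, adjusted p = 0.032) and no member was higher, beside 0.493% of all genes lower and 0.623% higher. The median was −0.13, beside 0.00 for all genes. EDEM1 lost this call in 8 of 12 fits with 1 library left out, namely each of the 6 libraries compared and replicate 2 of either +DHT group, and its adjusted p over all alternatives was 0.00046 to 0.55. By other tools the count of members lower was 3 with DESeq2, with PDIA3 and EDEM3 added, and 1 with limma-voom, and of members higher 1 (CREB3L2) and 0. The same 3 genes also passed with no filter on low counts. At an unadjusted p under 0.05, 6 members were lower and 1 was higher, beside 1004 and 1076 of the 15419 genes tested. The value lay below 0 for 28 of the 35 genes, all 12 chaperones among them, beside 7854 of all genes.

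With DHT, 32 of the 35 genes passed the test as lower in sh_TMEFF2 and none as higher, beside 9.09% of all genes lower and 6.93% higher. In 25 the level was also at least 1.5-fold lower, which 3.74% of all genes were. The median was −0.81, beside 0.00 for all genes. The chaperones were all lower, from 2.75-fold for DNAJB9, 2.47-fold for CRELD2 and 2.38-fold for MANF to 1.39-fold for CANX, and HSPA5 was 2.24-fold lower (adjusted p = 0.00072). All 6 isomerases were lower, from 1.95-fold for PDIA3 to 1.41-fold for P4HB. Of the ERAD genes 9 of 11 were lower, DERL3 by 2.33-fold, UBE2J1 by 2.28-fold and HERPUD1 by 2.25-fold, and DERL1 and OS9 did not pass (log2 −0.22 and −0.21). Of the sensors and factors 5 of 6 were lower, CREB3L4 by 1.90-fold, ERN1 by 1.76-fold and XBP1 by 1.30-fold, and EIF2AK3 did not pass. ATF6 (log2 −0.19, adjusted p = 0.040) and CREB3L2 (log2 −0.34, adjusted p = 0.039) each lost the call in 10 of 12 fits with 1 library left out, and with scaling by library size alone. ATF6 kept it only without replicate 2 of sh_TMEFF2 −DHT or replicate 1 of sh_TMEFF2 +DHT, and CREB3L2 only without replicate 2 of sh_TMEFF2 −DHT or of sh_scramble +DHT. That scaling changed all called genes from 1068 higher and 1402 lower to 1616 and 1101, with 30 members lower. No member was higher at an unadjusted p under 0.05, nor by DESeq2 or limma-voom, which each called 32 lower.

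The interaction term is the DHT response in sh_TMEFF2 minus that in sh_scramble. It was below 0 for all 35 genes and passed for 26, with none above 0, beside 3.29% of all genes that passed below 0 and 1.65% above. The median was −0.66, beside 0.01 for all genes. It rests on the same 12 libraries as the comparisons above, which also share groups with each other, and is no separate evidence. By role it passed for 11 of 12 chaperones, all 6 isomerases, 6 of 11 ERAD genes and 3 of 6 sensors and factors. The smallest adjusted p was that of CREB3L4 (log2 −1.0, SE 0.09, adjusted p = 8.4e-05), followed by UBE2J1 (−1.03, adjusted p = 0.00050) and DNAJB9 (−1.36, adjusted p = 0.0011), the last with the largest difference. The 9 that did not pass were DNAJB11 (adjusted p = 0.052), SEL1L, EDEM2, DERL1, DERL3, OS9, ATF6, ERN1 and EIF2AK3, with ATF6 the nearest to 0 (log2 −0.04, 95% interval −0.22 to 0.14). For DERL3 (−0.88) and ERN1 (−0.67) the 95% intervals ran from −1.47 to −0.29 and from −1.08 to −0.25.

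Each of the 12 libraries ended between 1 and 8 of the 26 interaction calls when left out, and the count then ranged from 18 (among others without sh_scramble −DHT replicate 2) to 28 (without sh_scramble +DHT replicate 2). Calls of 17 members held in all 12 of these fits. HSPA5 (adjusted p = 0.031), HSP90B1 (0.049), CALR (0.033), CRELD2 (0.025), SYVN1 (0.028), EDEM1 (0.035), DERL2 (0.026), HERPUD1 (0.021) and SDF2L1 (0.020) were lost in 2 to 10 of them. Scaling by library size changed all called interactions from 254 above and 507 below 0 to 370 and 398, with 23 members below, and the calls of HSP90B1, CALR and EDEM1 were lost. No member was above 0 at an unadjusted p under 0.05, nor by DESeq2 (30 below 0, with DNAJB11, EDEM2, DERL3 and ERN1 added) or limma-voom (24).

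**Figure D4:**
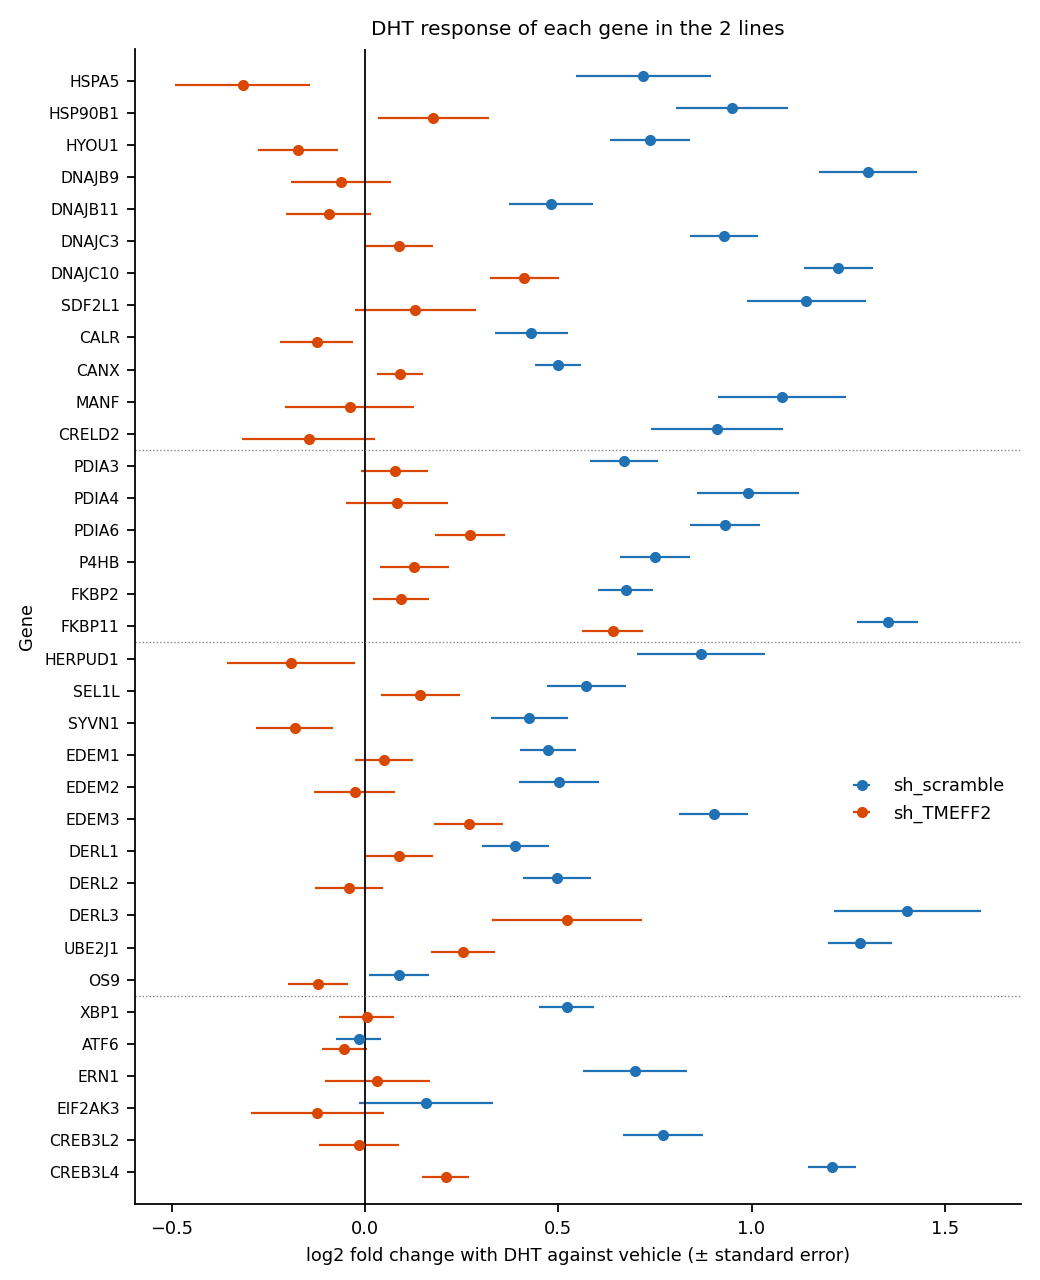
Log2 fold change with DHT, with its standard error, for each gene in sh_scramble (blue) and sh_TMEFF2 (orange), dotted lines dividing the roles. Every blue point lies right of its orange partner, from a gap of 0.04 for ATF6 to 1.36 for DNAJB9.

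Exons of 21 of the 35 genes overlap another annotated gene (GENCODE v44, GRCh38), mostly on the opposite strand, such as CREB3L4 (chr1:153967534-153974361, plus strand) with JTB and SLC39A1, and CRELD2 (chr22:49918167-49927540, plus strand) with ALG12. Whether the reads keep their strand is not given in the sources used here, so such counts may hold reads of the partner. The other 14 genes, among them HSPA5, DNAJB9, HERPUD1, UBE2J1 and XBP1, gave 13 higher with DHT in sh_scramble (beside 14.4% of all genes), 14 lower in sh_TMEFF2 with DHT (9.09%), and 11 below 0 for the interaction (3.29%). The genes that passed with DHT in sh_TMEFF2 (FKBP11, DNAJC10 and CREB3L4) or between the lines without DHT (EDEM1) are all among the 21 with an overlap.

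Other genes of the same compartments were counted in the same way, and their difference from the set was not tested. Of all genes tested 14.4% rose and 12.6% fell with DHT in sh_scramble, and 3.29% passed the interaction below 0. Of 32 further folding genes 16 rose and 1 fell with DHT in sh_scramble (median 0.33), and 6 passed the interaction, all below 0. KDELR2, a receptor that returns ER proteins from the Golgi, was at 199.9, 198 and 200.2 and 421, 396 and 372 CPM in sh_scramble and rose 1.99-fold. CLGN, a calnexin relative, was at 63.5, 68.8 and 69.8 and 186, 182 and 178 CPM and rose 2.70-fold, and PDIA5, another disulfide isomerase, was at 30.2, 26.95 and 30.5 and 90.2, 74.8 and 79.5 CPM and rose 2.79-fold. The interaction passed for KDELR2 (−0.71) and PDIA5 (−0.86) but not for CLGN (−0.40, adjusted p = 0.16). Of 28 further ERAD genes 12 rose and 16 did not pass (median 0.17), and 6 passed the interaction below 0. SELENOS, which recruits VCP to the derlins, rose 1.93-fold from 40.3, 41.2 and 41.7 to 86.7, 80.7 and 70.3 CPM, ERLEC1, a lectin related to OS9, rose 1.59-fold, and HM13, the signal peptide peptidase, rose 1.45-fold. Their interactions were −0.87, −0.68 and −0.49, and all 3 passed.

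Of 9 further sensor genes 8 were tested and 2 rose in sh_scramble, beside 14.4% of all genes that rose and 12.6% that fell. The 2 were MBTPS2 (log2 0.31), a protease that cuts ATF6, and WFS1 (0.47), an ER membrane protein that restrains ATF6. CREB3L1 had 0.81 with an adjusted p of 0.12. The median of the 8 was 0.12, and 2 passed the interaction below 0, beside 3.29% of all genes. The interaction of WFS1 (−0.62) was lost under 8 of 20 alternatives (adjusted p up to 0.11), among them leaving out any sh_scramble −DHT library, replicate 1 of sh_scramble +DHT, replicate 1 or 2 of sh_TMEFF2 −DHT, or replicate 3 of sh_TMEFF2 +DHT. Of 8 genes downstream of PERK 3 rose, PPP1R15B (0.37), TRIB3 (0.48) and ATF3 (0.47), and DDIT3, which encodes CHOP, fell, with a median of 0.05. The ATF3 call was lost under 8 of 21 alternatives (adjusted p up to 0.17), among them leaving out replicate 1 or 2 of sh_scramble −DHT, replicate 1 or 3 of sh_scramble +DHT, or replicate 3 of sh_TMEFF2 +DHT. The interaction passed for none of these 8 (1 at an unadjusted p under 0.05, 0 by DESeq2 and 0 by limma-voom). Chaperones of the cytosol and mitochondria, 16 in all, had a median of −0.03, with HSPD1 higher (0.16), HSP90AA1 lower (−0.25) and 14 not passed, HSP90AB1 among them (−0.14, adjusted p = 0.053), which passed under 6 of 21 alternatives (adjusted p down to 0.0033), DESeq2, limma-voom and library size scaling among them. The HSPD1 call was lost under 9 of 21 alternatives (adjusted p up to 0.20), among them library size scaling and leaving out replicate 1 or 2 of either sh_scramble group. That of HSP90AA1 was lost under 3, without replicate 1 of sh_scramble −DHT or replicate 2 or 3 of sh_scramble +DHT. Their interaction passed for none (2 at an unadjusted p under 0.05, both above 0, and 0 by DESeq2 and limma-voom), while 1 passed above 0 with library size scaling.

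**Figure D5:**
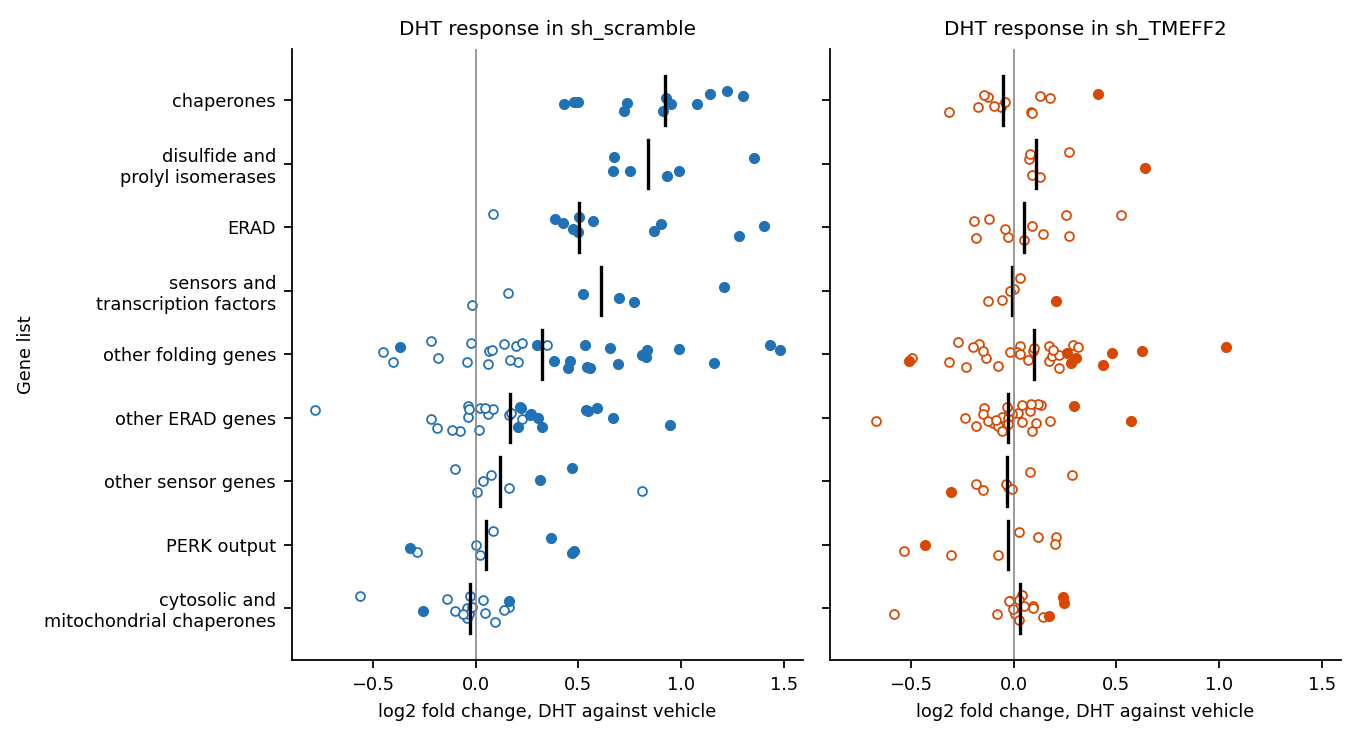
Log2 fold change with DHT of each gene (points, filled where the adjusted p is at most 0.05) by list in sh_scramble (left) and sh_TMEFF2 (right), with the list median (black bar). In sh_scramble the medians run from 0.92 for the chaperones to −0.03 for the cytosolic and mitochondrial chaperones, and in sh_TMEFF2 they lie between −0.05 and 0.11.

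By promoter letters, the 10 members with an ERSE or ERSE-II all rose with DHT in sh_scramble (median 0.80), beside 14.4% of all genes. All 10 passed the interaction below 0 (median −0.84), beside 3.29% of all genes. Of these 10 interaction calls 5 were kept without replicate 2 of sh_scramble −DHT, replicate 1 of sh_scramble +DHT, replicate 1 of sh_TMEFF2 −DHT, or replicate 2 or 3 of sh_TMEFF2 +DHT. Without replicate 3 of sh_scramble +DHT, replicate 2 of sh_TMEFF2 −DHT or replicate 1 of sh_TMEFF2 +DHT 6 were kept. Of the 22 members with a window and neither element, 19 rose (median 0.73) and 15 passed the interaction (median −0.63). FKBP11, UBE2J1 and CREB3L4, which changed by over 2-fold in sh_scramble, are among those without either element. Of 18 other genes with an ERSE 10 were tested, and 4 of these rose with DHT in sh_scramble. The difference between members with and without the elements was not tested.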

How the data were processed

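The members and gene lists were chosen with earlier results of these data known. The authors trimmed the reads with Trimmomatic, quantified transcripts of GRCh38 with kallisto 0.42.3 and bias correction, and deposited estimated counts per gene under the name lengthScaledTPM, which is a tximport option for counts scaled to library size and transcript length. Their own comparisons used DESeq2 and a limit of 5 CPM, and no result of these was used here. The table had 24 columns, 2 for each of the 12 libraries, which were taken as repeat runs by their names and were summed and rounded; 8918 of 34643 genes were at 0 throughout.

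Counts were analysed in R 4.3.3 with edgeR 4.0.16: TMM (factors 0.955 to 1.037), filterByExpr (minimum count 10, minimum total 15), 1 coefficient per group over all 12 libraries, and the quasi-likelihood test, with p-values adjusted by Benjamini and Hochberg's method for 15419 genes. The common biological coefficient of variation was 0.131. A gene passed at an adjusted p of at most 0.05, and 95% intervals use the test's degrees of freedom. Fits were tested on simulated data. Alternatives were DESeq2 1.42.0 (the study's tool), limma-voom (limma 3.58.1), library size scaling, no filter, a mean above 5 CPM, the 6 libraries compared alone, 1 column per library, a replicate block and each library left out.

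Genes named are the 35 members, TMEFF2, KLK3, TMPRSS2, FKBP5, NDRG1, the cell type markers (1 of which is not reported here), and in each of 5 further lists the 3 genes with the smallest p for DHT in sh_scramble. DDIT3 was named after its value was seen, being the only gene of its list to fall. MESD, UFD1 and MARCHF6 were found under older symbols. Promoters are from RefSeq. A planned comparison of protein ends was not run, since no protein sequences were used here. PDIA3, DERL1 and DERL3 had no promoter window.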

Additional observations from a re-analysis of the deposited data

Results flagged for a closer look

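The DHT responses of sh_scramble and sh_TMEFF2 differed, by edgeR's interaction test (adjusted p not above 0.05), in the genes below, which are members, androgen-induced controls or genes named by the rule on further lists, and each value is the log2 response in sh_TMEFF2 minus that in sh_scramble. Among chaperones the values were −1.04 for HSPA5, −0.77 for HSP90B1, −0.91 for HYOU1, −1.36 for DNAJB9, −0.84 for DNAJC3 and −0.81 for DNAJC10. They were −1.01 for SDF2L1, −0.56 for CALR, −0.41 for CANX, −1.12 for MANF and −1.06 for CRELD2. Isomerases had −0.59 (PDIA3), −0.91 (PDIA4), −0.66 (PDIA6), −0.62 (P4HB), −0.58 (FKBP2) and −0.71 (FKBP11). In ERAD genes the difference was −1.06 for HERPUD1, −0.61 for SYVN1, −0.42 for EDEM1, −0.63 for EDEM3, −0.54 for DERL2 and −1.03 for UBE2J1. The EDEM1 value ranged from −0.75 to −0.14 over the alternatives (adjusted p up to 0.64). Of the factors, XBP1 had −0.52, CREB3L2 −0.79 and CREB3L4 −1.0. Outside the set the test passed for 6 of 32 other folding genes, 6 of 28 other ERAD genes and 2 of 8 other sensor genes, and among the genes named for PDIA5 (−0.86), KDELR2 (−0.71), SELENOS (−0.87), ERLEC1 (−0.68), HM13 (−0.49), WFS1 (−0.62), FKBP5 (−2.50) and NDRG1 (−1.48).

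KRT8 and KRT18 (−1.49 and −1.07) passed as well. The values given here are all below 0. Of the 5 luminal markers tested 1 passed above 0, and over all genes 507 passed below and 254 above 0. Of 20 alternatives, 13 ended the call of HSP90B1 and of EDEM1, 11 that of CALR, 10 that of CRELD2, 9 that of DERL2, 8 each those of HSPA5, SYVN1 and WFS1, 4 that of HERPUD1, 3 that of SDF2L1, and 1 each those of P4HB, FKBP11 and EDEM3. The part of TMEFF2 RNA, which did not pass the test between the lines, and of the transduction in these differences was not tested.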

How the results depend on the processing

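Member calls held under every alternative tried for 31 of 32 genes with DHT in sh_scramble, 30 of 32 in sh_TMEFF2 with DHT, 2 of 3 with DHT in sh_TMEFF2, 14 of 26 for the interaction and 0 of 1 in sh_TMEFF2 without DHT. With 1 library left out, the median member change with DHT in sh_scramble ranged from 0.61 to 0.85, and the members higher with DHT in sh_TMEFF2 from 2 to 5 (5 without sh_scramble +DHT replicate 2). The members higher and lower without DHT each ranged from 0 to 1, with 1 higher without the same library. For all genes with DHT in sh_TMEFF2 the range was 636 to 1242 higher and 241 to 792 lower, the lowest without sh_TMEFF2 +DHT replicate 3, and both counts also fell by over 1.5 times without sh_TMEFF2 −DHT replicate 1 (743 and 451) or 2 (708 and 378), the lower genes also without sh_TMEFF2 +DHT replicate 2 (438). Without DHT 22 to 122 genes were higher and 23 to 77 lower, with at most 50 of either without any sh_scramble −DHT library or replicate 1 or 2 of sh_TMEFF2 −DHT. In sh_TMEFF2 with DHT 667 to 1212 genes were higher, and 127 to 294 interactions lay above and 329 to 471 below 0. Leaving out sh_scramble +DHT replicate 1 gave 667, 160 and 329 of these. Interactions above 0 were also few without replicate 1 or 2 of sh_scramble −DHT (159 and 127) or of sh_TMEFF2 −DHT (165 and 152), or sh_TMEFF2 +DHT replicate 1 (148). The TMPRSS2 change with DHT in sh_TMEFF2 ranged from −0.10, without sh_TMEFF2 +DHT replicate 3, to 1.05.

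With DHT in sh_TMEFF2, DESeq2 called 6 members higher and the first column of each library 5, and the genes lower numbered 476 with the first and 443 with the second column. Without DHT, DESeq2 gave 1 member higher and 3 lower (289 and 250 of all genes), no filter 1 and 3 (165 and 133), the 6 libraries alone 0 lower (47 and 26), the first column 35 and 41 genes, and the second column 0 members lower (44 and 32). In sh_TMEFF2 with DHT, 1616 genes were higher with library size scaling and 667 with the second column. Interactions above 0 numbered 475 by DESeq2, 169 with the first column and 148 with the second. The 6 libraries alone, 1 column per library and each library left out use fewer counts or samples, and for the other settings the cause was not tested.

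Samples with the same replicate number had correlated deviations over 0.1 in 3 of 18 pairs (median 0.072), beside 0 of 36 pairs of unlike number (median −0.028). A library correlated best with its own number in 33 of 36 comparisons, so the numbers carried some shared variation. The main fit did not take them as pairs, which leaves that variation in its spread. With the replicate number as a block, 6 members were higher with DHT in sh_TMEFF2, 1 was higher and 3 lower without DHT (176 and 186 of all genes), 34 were lower with DHT, and interactions numbered 30 members below and 432 genes above 0. Depth limits DERL3 most, with as few as 80.5 counts in a library.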

Other observations

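The further lists of ER genes were also compared between the lines with DHT. Of 32 other folding genes 16 were lower and 2 higher in sh_TMEFF2 with DHT (median −0.33), of 28 other ERAD genes 9 were lower (−0.12), of 8 other sensor genes 4 were lower (−0.27), of 8 genes downstream of PERK 1 was lower (−0.13), and of 16 cytosolic and mitochondrial chaperones 3 were higher (0.09), beside 9.09% of all genes lower and 6.93% higher. With DHT in sh_TMEFF2 itself, 7 of the other folding genes rose and 1 fell. CLGN was among those that rose, and went from 56.3, 51.3 and 64.1 CPM to 102, 113 and 137 without overlap. Of the other ERAD genes 2 rose, of the other sensor genes and the genes downstream of PERK 1 fell in each, and of the cytosolic and mitochondrial chaperones 3 rose, beside 7.84% of all genes that rose and 5.21% that fell. DDIT3 was at 29.5, 34.8 and 33.6 CPM in sh_scramble −DHT and 28.3, 22.5 and 27.7 with DHT, and at 30.4, 30.6 and 29.5 and 24.6, 22.3 and 20.2 CPM in sh_TMEFF2, so that it fell with DHT in each line (log2 −0.32 and −0.43, adjusted p = 0.042 and 0.019). The call of DDIT3 was lost under 10 of 21 alternatives in sh_scramble (adjusted p up to 0.20) and 4 of 21 in sh_TMEFF2 (up to 0.10). In sh_scramble these leave out replicate 2 or 3 of −DHT, replicate 2 of +DHT, any sh_TMEFF2 −DHT library or replicate 2 of sh_TMEFF2 +DHT, or drop the filter, the other 6 libraries or the second columns. In sh_TMEFF2 they leave out replicate 1 or 2 of −DHT, or replicate 2 or 3 of +DHT.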
